A study of Mus musculus with 4 samples.

Results

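Arc, Npas4, Ptgs2, Homer1, Gadd45g and Arl4d are 6 of the 31053 genes counted in this series, and all 6 were described in excitatory neurons of the mouse ventromedial prefrontal cortex (vmPFC). They were grouped as genes whose products carry out the response to neuronal activity. The rule names them and uses no measured value, but they were chosen with earlier results of these data known. The counts are unique molecular identifiers (UMIs, 1 per captured transcript) from 10x Genomics single-cell RNA-seq of male C57BL/6 mice labelled as 8 weeks old, which the study's methods give as the age at virus injection, so the animals were older when cells were taken. Each animal had received rAAV2-retro viruses, which enter axons and travel back to the cell body, with a differently barcoded EGFP transcript for each of 5 projection targets. All groups share this infection. Cells of 3 mice were loaded without sorting, a library for each mouse, and cells of a further 3 mice were pooled and sorted for EGFP into 1 library, so sorting and library cannot be told apart. The labels state for the unsorted mice that slices were held with CNQX, which blocks AMPA receptors, and D-AP5, which blocks NMDA receptors, before warm enzymatic digestion. These levels are therefore those of dissociated cells.

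The 9368 neurons that the authors assigned to 7 subtypes comprised 2816, 2486 and 2463 from the libraries made without sorting (unsorted libraries 1 to 3) and 1603 that had been sorted. Median UMIs per neuron ranged from 21344 to 23213 in the unsorted libraries and reached 31669 in the sorted library, in which the median mitochondrial share was also lower (3.47% against 6.53% to 6.54%). Slc17a7, which encodes the vesicular glutamate transporter that defines these neurons, was detected in 99.9% to 99.96% of them. Between 18 and 62 cell barcodes of a library also occurred in another library. Levels are given as CPM, the UMIs summed over the neurons of a subtype in a library and scaled to a total of 1000000, and they are compared within a gene only.

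Immediate early genes are transcribed within minutes of synaptic activity and calcium entry, without new protein synthesis. Some encode transcription factors, among them Npas4, a neuron-specific factor that answers to calcium influx. The others described here act outside transcription: Arc at the synapse in the removal of AMPA receptors, Ptgs2 as the inducible cyclooxygenase that makes prostaglandins, Homer1 as a scaffold of the postsynaptic density with a short activity-induced form, Gadd45g as a stress- and activity-induced regulator of DNA demethylation and the cell cycle, and Arl4d as a small GTPase of the ARF family. Many such genes carry the cAMP response element (CRE), the binding motif of CREB.

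On GRCm38 the genes lie at chr15:74669083-74672570 (Arc, minus strand), chr19:4984355-4990316 (Npas4, minus), chr1:150100031-150108227 (Ptgs2, plus), chr13:93299635-93405129 (Homer1, plus), chr13:51846678-51848468 (Gadd45g, plus) and chr11:101665541-101667832 (Arl4d, plus). Homer1 has 11 coding transcripts with 8 different 3' ends, and its gene count does not separate the short form from the long forms. RefSeq promoters (GRCm38.p6, 250 bases before the start) were matched for 5 of the 6 genes. The CRE was searched as TGACGTCA and its core as TGACG on both strands, so that a full CRE also counts as overlapping cores. The AP-1 motif (TGACTCA or TGAGTCA), the EGR motif (GCGTGGGCG or GCGGGGGCG), the E-box CACGTG, the TATA box TATAAA and the CArG box were searched as well. A full CRE stood in 1.55% and a core in 17.8% of 32851 promoters. Homer1 had cores at 56, 40 and 14 bases upstream of the first of its 2 RefSeq starts, and 0.688% of promoters held 3 or more. The window of its second start, at position 93308034, held none of the motifs. Both Homer1 windows lie inside the gene as GENCODE annotates it, past its first base at position 93299635. Arl4d had a full CRE at 26 bases and a further core at 228 bases upstream, and Gadd45g had a TATA box at 27 bases and an E-box at 142 bases upstream but no core. The 3 sequences are shown with the CRE core or TATA box in capitals, and no link between motifs and levels was tested. They are Homer1 at chr13:93303507-93303756, Arl4d at chr11:101665291-101665540 and Gadd45g at chr13:51846425-51846674, all on the plus strand, 5' to 3'.
Homer1: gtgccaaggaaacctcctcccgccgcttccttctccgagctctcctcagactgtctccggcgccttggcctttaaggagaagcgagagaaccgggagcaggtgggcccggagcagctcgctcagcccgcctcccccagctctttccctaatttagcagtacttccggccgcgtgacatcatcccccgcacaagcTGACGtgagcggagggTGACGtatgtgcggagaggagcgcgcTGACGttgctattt
Arl4d: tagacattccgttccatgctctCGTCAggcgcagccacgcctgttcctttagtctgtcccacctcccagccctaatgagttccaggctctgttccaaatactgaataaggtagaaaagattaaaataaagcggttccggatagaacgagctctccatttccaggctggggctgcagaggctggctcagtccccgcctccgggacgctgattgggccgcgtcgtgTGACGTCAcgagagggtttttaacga
Gadd45g: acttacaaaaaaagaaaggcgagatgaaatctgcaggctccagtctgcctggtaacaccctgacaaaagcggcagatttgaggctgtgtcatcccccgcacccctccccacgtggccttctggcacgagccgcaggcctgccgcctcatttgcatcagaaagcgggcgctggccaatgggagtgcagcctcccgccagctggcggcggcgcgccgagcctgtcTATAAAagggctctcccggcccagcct
Npas4 had cores at 179 and 169 bases upstream of its RefSeq start, a window that lies inside the gene as GENCODE annotates it, past the start of its coding transcript. Ptgs2 held none of these motifs upstream, but a core at 13 and an E-box at 16 bases past its start. TATA boxes were present in 12.4%, E-boxes in 6.02%, AP-1 motifs in 4.46%, EGR motifs in 3.06% and CArG boxes in 1.47% of all promoters.

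Arc, the gene of the synaptic capsid-like protein, was highest in L6-Syt6 neurons and lowest in L5-Bcl6 neurons. In L6-Syt6 it stood at 315, 319 and 339.5 CPM in the 3 unsorted libraries and at 389 CPM in the sorted library. In L2/3-Rorb it stood at 232, 206 and 244 CPM, and in the sorted library at 322 CPM. The unsorted ranges of these subtypes did not overlap, and L6-Syt6 was the higher in 4 of 4 libraries. L5-S100b (152, 159 and 164 CPM) and L6-Npy (150.2, 167 and 135 CPM) overlapped in their ranges. L5-Htr2c followed at 101 to 126 CPM, and L2/3-Calb1 (66.3 to 98.7 CPM) and L5-Bcl6 (42.1 to 81.6 CPM) could not be separated. The mean of the unsorted libraries was 4.89-fold higher in L6-Syt6 than in L5-Bcl6.

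Npas4 shared the upper end of this order. L2/3-Rorb stood at 251, 193 and 235 CPM and L6-Syt6 at 225, 214 and 227.5 CPM in the unsorted libraries, with 286 and 292 CPM in the sorted library. The 2 subtypes overlapped, and both were above L6-Npy (104 to 156 CPM), the next in order, in every library. Every neighbouring pair below L6-Npy overlapped, down to L5-Bcl6 at 37.5 to 79.5 CPM, which was 4.08-fold lower than L2/3-Rorb.

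Ptgs2 differed most between subtypes. It stood at 106, 127 and 122 CPM in L6-Npy of the unsorted libraries and at 154 CPM in the sorted library. In L2/3-Calb1 it stood at 57.6, 25.6 and 60.0 CPM and in L2/3-Rorb at 27.0, 17.3 and 39.1 CPM. In L5-S100b it ranged from 12.4 to 14.8 CPM, and in L6-Syt6, where Arc was highest, from 10.5 to 12.1 CPM. L6-Npy was above every other subtype in 4 of 4 libraries, 20.1-fold above L5-Bcl6, where Ptgs2 came to 3.77, 0.851 and 13.1 CPM from 11, 2 and 29 UMIs. That fold was 50.4 without unsorted library 3 and 13.5 to 17.9 without either of the others. L5-Htr2c, at 0, 15.35 and 2.61 CPM from 0, 22 and 4 UMIs, could not be separated from L5-Bcl6.

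Homer1 varied least as a ratio of the highest to the lowest subtype. Its highest subtype was L2/3-Rorb (365, 349 and 346 CPM, sorted 391 CPM), and L5-Htr2c was lowest (146, 141 and 138 CPM), a 2.49-fold difference. L5-S100b, L6-Syt6, L2/3-Calb1 and L5-Bcl6 lay between 249.7 and 306 CPM, and L6-Syt6 and L2/3-Calb1 overlapped. L6-Npy, the subtype with the most Ptgs2, had 240, 215 and 199.6 CPM of Homer1, under every unsorted library of L5-Bcl6.

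Gadd45g and Arl4d were both highest in L6-Syt6. Gadd45g stood there at 328, 340.0 and 339 CPM, with 353 CPM in the sorted library. L6-Npy followed at 315, 304 and 277 CPM (sorted 220.0 CPM), and no other subtype exceeded 181 CPM in an unsorted library. Arl4d stood at 131, 135 and 147 CPM in L6-Syt6 (sorted 172 CPM), above 67.4 CPM, the highest unsorted value in L6-Npy. Below L6-Npy, neighbouring subtypes overlapped for Arl4d, and below L2/3-Calb1 they overlapped for Gadd45g. The 2 genes thus shared their highest subtype while L2/3-Rorb, first for Npas4 and Homer1, had 140.1 to 181 CPM of Gadd45g and 30.8 to 46.4 CPM of Arl4d.

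**Figure D1:**
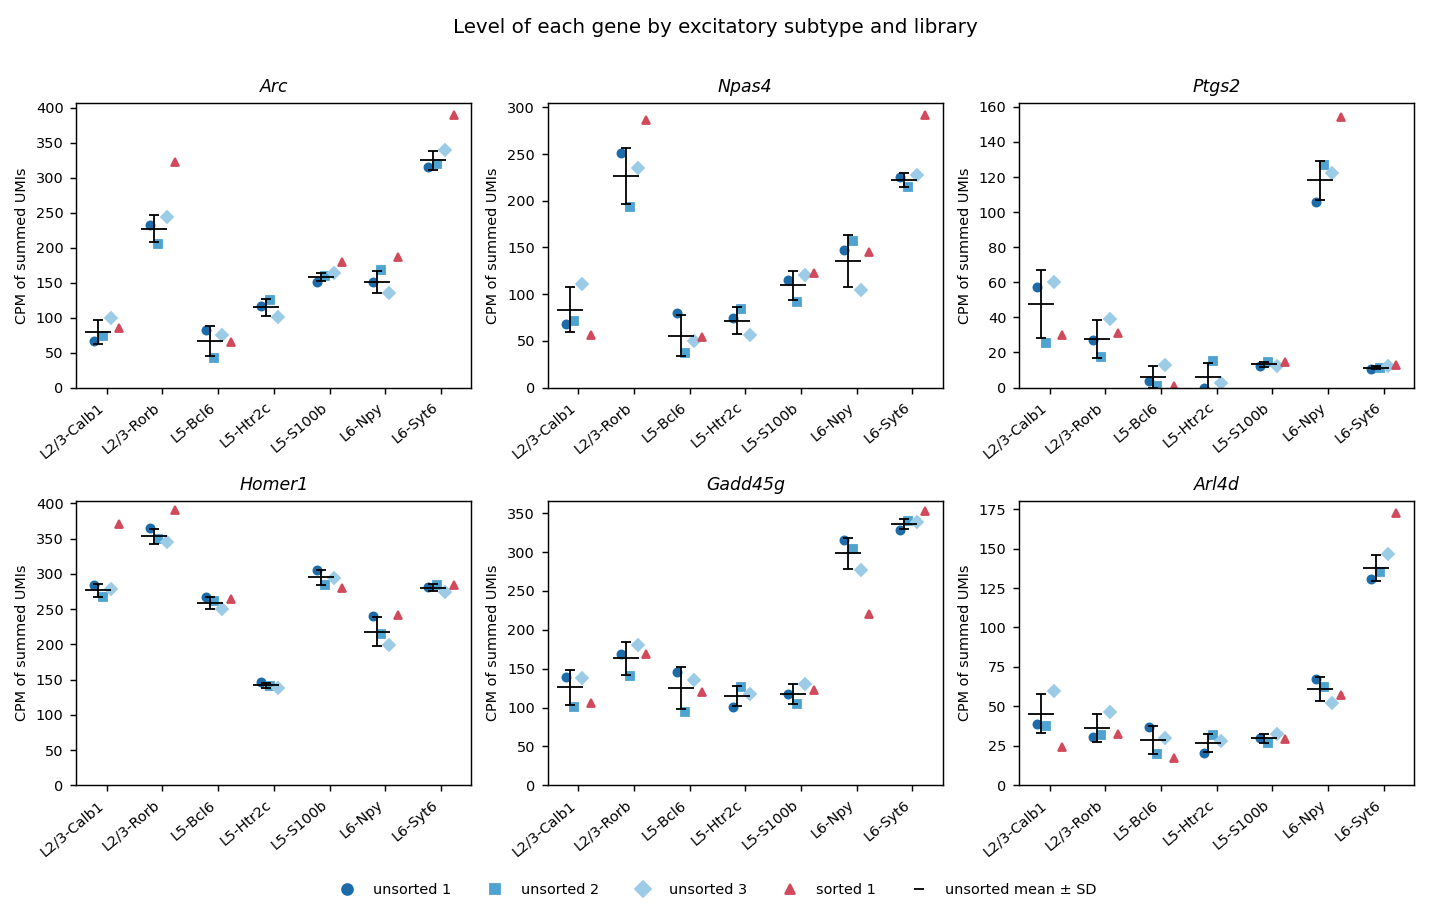
Level of each gene (CPM of summed UMIs, vertical axis from 0) in each neuronal subtype, with points for the 3 unsorted libraries and the sorted library. Ptgs2 peaks in L6-Npy at 106 to 154 CPM while Arc peaks in L6-Syt6 at 315 to 389 CPM, and Homer1 has the smallest ratio of highest to lowest subtype (2.49).

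Single neurons differed in depth, so each was thinned to 10000 UMIs, which left out 270 of 9368 neurons. A thinned L6-Syt6 neuron held UMIs of 3.50 ± 0.015 of the 6 genes (mean ± SD, n = 3 unsorted libraries), an L2/3-Rorb neuron of 3.20 ± 0.149 and an L5-Htr2c neuron of 2.10 ± 0.068. At least 5 of the 6 were detected in 28.1% ± 0.61 of L6-Syt6 neurons, 19.2% ± 3.99 of L6-Npy neurons and 2.65% ± 1.61 of L5-Htr2c neurons. All 6 were detected in 9.83%, 11.9% and 4.38% of L6-Npy neurons (sorted 11.2%) and in 2.17%, 2.58% and 2.58% of L6-Syt6 neurons (sorted 3.92%). L6-Syt6 was thus higher for 5 or more of the genes, and L6-Npy, where Ptgs2 is highest, for all 6.

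The UMIs of some genes were concentrated in few cells. In L6-Syt6, the top 5% of neurons held 81.9% ± 2.18 of the Ptgs2 UMIs, against 35.5% ± 4.20 of the Arl4d UMIs, 28.5% ± 1.05 of the Gadd45g UMIs and 16.5% ± 0.588 of the Homer1 UMIs (n = 4 libraries). In L6-Npy, the top 5% held 48.3% ± 5.37 of the Ptgs2 UMIs. A low mean raises this share by sampling alone, so the values are a description of each gene.

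Neurons high in Arc were also high in Npas4. Across thinned L6-Syt6 neurons of a library the correlation of Arc and Npas4 averaged 0.58 over 4 libraries (0.54 to 0.62), that of Gadd45g and Arl4d 0.52, and that of Npas4 and Arl4d 0.50. Homer1 stood apart, at 0.13 with Arc, 0.03 with Npas4 and -0.00029 with Gadd45g. In L6-Npy the correlations of Homer1 with the other genes were 0.19 to 0.30, and Ptgs2, which is sparse in L6-Syt6 (0.08 to 0.11 with the others), reached 0.51 with Npas4. These are correlations across cells of a library at matched depth, with 739 to 1478 L6-Syt6 and 260 to 295 L6-Npy neurons per library, and cells of a library are not replicates.

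**Figure D2:**
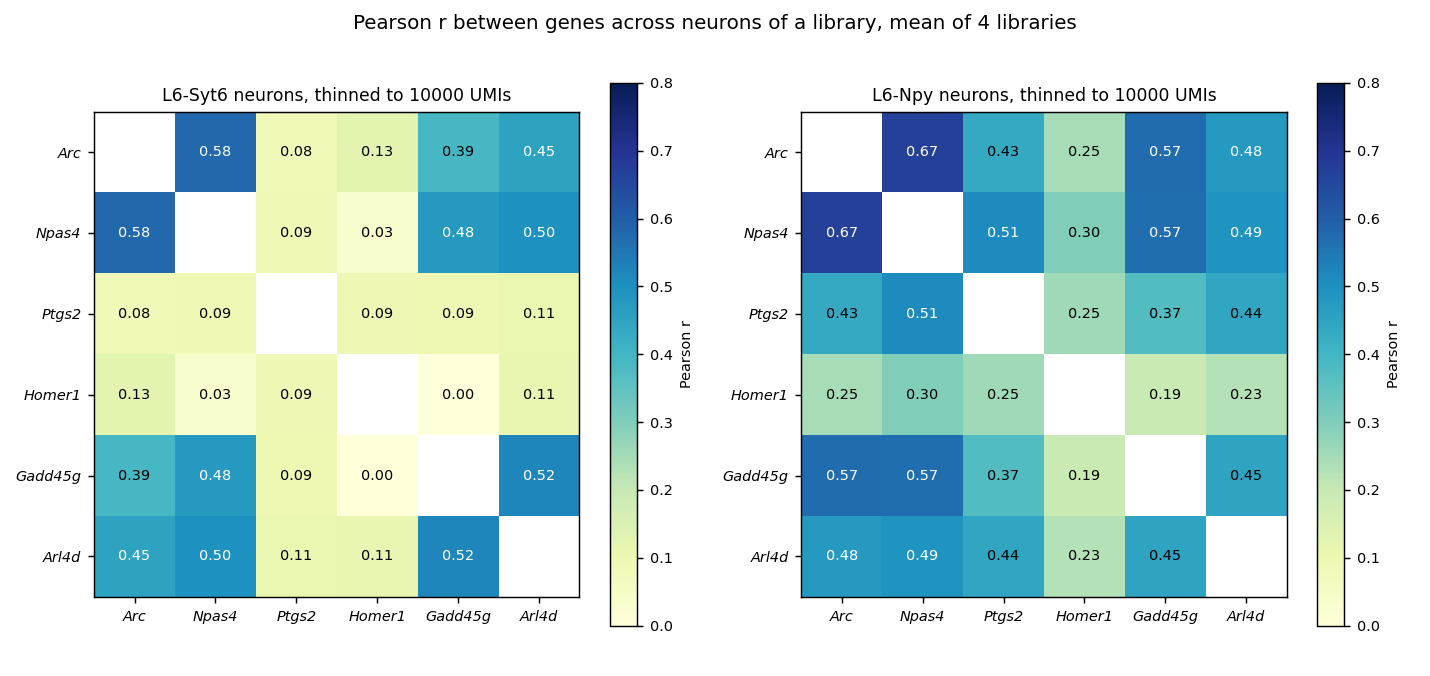
Mean Pearson correlation over 4 libraries between each pair of genes across neurons thinned to 10000 UMIs, in L6-Syt6 and L6-Npy. Arc and Npas4 are the highest pair in both (0.58 and 0.67), and Homer1 stays at or below 0.13 in L6-Syt6 and 0.30 in L6-Npy.

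The genes most like each member were taken as those with the highest mean correlation among 11434 genes across L6-Syt6 neurons, without thinning. Arc was most like Junb (0.71), Npas4 (0.70) and Egr4 (0.70), and Npas4 was most like Egr4 (0.72), Arc and Dusp1 (0.69). Gadd45g was nearest to Arl4d (0.60), Fos (0.60) and Junb (0.59), and Arl4d to Egr4 (0.66), Junb (0.63) and Gadd45b (0.61). Homer1 was nearest to Egr1 (0.47), the NMDA receptor subunit gene Grin2a (0.46) and Egr3 (0.46). Ptgs2 was nearest to the neurotrophin gene Bdnf (0.29), Tiparp (0.23) and Fosl2 (0.23). Over the 27 sums of a library and subtype, which share libraries and depth, Arc was most like Npas4 (0.94) and Gadd45g most like Gadd45b (0.93) among 10519 genes. On these sums Ptgs2 was nearest to Ifitm10 (0.88), Homer1 to Mir9-3hg (0.92) and Arl4d to Thsd7b (0.90), none of them among its 5 nearest genes across cells.

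The counts also hold a viral feature named barcode, read here as the pooled transcript of all the viruses, and the targets of single neurons were not analysed here. Neurons with 5 or more UMIs of this feature (barcode-high) were compared with neurons with 0 (barcode-zero) within a library and subtype. The comparison asks whether these genes differ with the amount of viral transcript in neurons of the same subtype. Counts were summed per library and arm and tested with edgeR's quasi-likelihood test with the library as a block, and a gene was called at a Benjamini-Hochberg adjusted p below 0.05 with a log2 fold change of at least 0.5. A gene that rose or fell is one called higher or lower in barcode-high neurons. The arms are different cells, so no change within a neuron was observed. A neuron with 0 UMIs can still be infected, and barcode-high neurons were deeper in every tested library, so CPM were compared. Overlap of values between the arms, as between subtypes above, is given as a description without a share over all genes.

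In L6-Syt6 neurons (1635 barcode-high and 2327 barcode-zero), 5 of the 6 genes rose, against 1.67% of the 13030 genes tested that were called in either direction and 0.806% that were called higher. Arl4d stood at 184, 199.5, 205 and 214 CPM in barcode-high neurons (unsorted 1 to 3, then sorted) and at 112, 113, 128 and 107 CPM in barcode-zero neurons. The 2 sets did not overlap, and the log2 fold change was 0.83 ± 0.065 (SE, adjusted p = 0.000489). Gadd45g stood at 431, 455, 458 and 414 CPM against 301, 299, 308 and 292 CPM, again without overlap (0.60 ± 0.047, adjusted p = 0.000489). Npas4 stood at 285, 276, 305 and 356 CPM against 209, 202.5, 212 and 158 CPM (0.67 ± 0.113, adjusted p = 0.0122).

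Arc was also higher in barcode-high L6-Syt6 neurons, at 371, 370.2, 407 and 462 CPM against 301, 308, 325 and 225 CPM (0.51 ± 0.119, adjusted p = 0.0363). The groups did not overlap, and the difference was widest in the sorted library, which held 94 barcode-zero neurons that had passed the EGFP sort. Without that library the Arc difference was 0.33, under the fold limit, and that of Npas4 was 0.50. Ptgs2 stood at 16.5, 15.9 and 15.8 CPM against 7.62, 8.36 and 9.01 CPM in the unsorted libraries but was lower in the sorted library, at 11.1 against 16.3 CPM (0.80 ± 0.182, adjusted p = 0.0336). Homer1 stood at 263, 283, 276 and 267 CPM against 289, 280.3, 270.3 and 313 CPM and was not called (-0.03 ± 0.053, adjusted p = 0.739). With DESeq2 the Ptgs2 call was lost (adjusted p = 0.0688), and 2 of the 6 were called without the library block and likewise without any 1 of the unsorted libraries. Among neurons of 15000 to 40000 UMIs 3 were called, and 1 with a limit of 1 or more barcode UMIs.

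In L6-Syt6, shares of neurons with a UMI, thinned to 10000 UMIs, differed in the same direction as the levels. This did not hold in every subtype. For Homer1 in L5-S100b the thinned shares were 90.7% in barcode-high and 91.6% in barcode-zero neurons. For Npas4 in L2/3-Calb1 they were 32.6% and 36.9%. Npas4 was detected in 77.4% ± 3.32 of barcode-high and 55.8% ± 7.26 of barcode-zero L6-Syt6 neurons (n = 4), Arl4d in 57.8% ± 4.30 and 41.9% ± 2.20, and Homer1 in 85.7% ± 2.67 and 89.1% ± 2.49. Before thinning the shares were 88.8% and 71.2% for Npas4, 75.4% and 58.3% for Arl4d, and 98.6% and 96.9% for Homer1. Median depth was 24580 to 38600 UMIs in barcode-high and 21680 to 30100 UMIs in barcode-zero neurons. The median mitochondrial share was 2.540% to 5.815% in barcode-high and 3.381% to 5.941% in barcode-zero neurons, and its part was not tested. Summed markers of other cell types were lower in barcode-high neurons in 4 of 4 libraries here (31.3 to 66.1 against 33.8 to 71.2 CPM) and in L6-Npy (74.4 to 95.4 against 85.9 to 102 CPM), and higher in 3 of 4 in L5-S100b (121 to 141 against 122 to 133 CPM), and their part in the results was not tested.

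In L6-Npy neurons (535 barcode-high and 232 barcode-zero), Arc, Npas4, Ptgs2 and Arl4d rose, where 0.801% of genes were called and 0.617% were called higher. Ptgs2 stood at 119.9, 164, 147 and 243.5 CPM against 101, 137, 76.4 and 59.6 CPM, higher in 4 of 4 libraries with overlapping groups (0.85 ± 0.140, adjusted p = 0.000187). Arc stood at 180.4, 221.5, 177 and 302.5 CPM against 146, 154, 109 and 79.1 CPM, without overlap (0.85 ± 0.123, adjusted p = 2.12e-05). Npas4 differed by 0.86 ± 0.125 (adjusted p = 2.27e-05) and Arl4d by 1.04 ± 0.156 (adjusted p = 4.2e-05), each higher in 4 of 4 libraries. The sorted library gave the widest gap for each of these 4 genes. Its log2 ratio was 1.935 for Arc and 1.949 for Npas4, against 0.30 to 0.69 and 0.24 to 0.75 in the unsorted libraries. Homer1 (0.35 ± 0.066, adjusted p = 0.00131) and Gadd45g (0.39 ± 0.073, adjusted p = 0.000991) were also higher in 4 of 4 libraries but under the fold limit. DESeq2 called 0 of the 6 (6 at an unadjusted p below 0.05) and 11 of all 10365 genes tested. Without the library block edgeR called 0 of the 6 (5 at an unadjusted p below 0.05) and 0 of all genes. Without the sorted library Ptgs2 fell under the fold limit at 0.46. With a limit of 1 or more barcode UMIs 2 were called.

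In L5-S100b neurons (958 barcode-high and 195 barcode-zero), Arc, Npas4 and Homer1 rose, where 2.70% of genes were called and 1.10% were called higher. Homer1 stood at 325, 299.5, 315 and 299.3 CPM against 249, 193, 228 and 219.5 CPM, without overlap and higher in 4 of 4 libraries (0.50 ± 0.062, adjusted p = 1.17e-06). Arc (0.52 ± 0.111, adjusted p = 0.00269) and Npas4 (0.50 ± 0.119, adjusted p = 0.00659) were higher in 3 of 4 libraries, and each lost its call without the sorted library (0.37 and 0.32). Gadd45g, among the clearest in L6-Syt6, stood at 125 ± 12.5 CPM against 122 ± 48.7 CPM (mean ± SD, n = 4; adjusted p = 0.975). Homer1 was the only member of the 6 that DESeq2 also called here, and the gene lay just past the fold limit, with 0.46 to 0.55 when a library was left out. No gene of the 6 was called by edgeR without unsorted library 2, without the library block, among neurons of 15000 to 40000 UMIs or with 1 or more barcode UMIs, although 3 had an unadjusted p below 0.05 in each.

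In L2/3-Calb1 neurons only the 3 unsorted libraries held enough cells in each arm (82 barcode-high and 165 barcode-zero). Arc, Gadd45g and Arl4d rose, where 0.180% of genes were called and 0.156% were called higher. Arl4d stood at 69.7, 86.0 and 93.0 CPM against 21.9, 20.6 and 52.2 CPM (1.42 ± 0.213, adjusted p = 0.000339), and Gadd45g at 227, 201 and 155 CPM against 87.6, 69.4 and 117 CPM (1.09 ± 0.158, adjusted p = 0.000212). Neither pair of groups overlapped. Arc differed by 0.92 ± 0.182 (adjusted p = 0.0155) and Npas4 by 0.79 ± 0.183 (adjusted p = 0.0633). Unsorted library 2 decided the count, since 0 of the 6 were called without it. DESeq2 called 0 of the 6 (4 at an unadjusted p below 0.05) and 2 of all 8340 genes tested. With a limit of 1 or more barcode UMIs 1 was called.

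In L2/3-Rorb (453 and 126 neurons) and L5-Bcl6 (198 and 61 neurons) edgeR called none of the 6, where 0.139% and 0.0686% of genes were called (0.0996% and 0.0457% higher). In L2/3-Rorb 4 of the 6, and in L5-Bcl6 1 of the 5 tested, had an unadjusted p below 0.05. DESeq2 called 0 in both, where it called 0 of all 10038 and 0 of all 8752 genes tested. Npas4 in L2/3-Rorb came nearest, at 285, 181, 237.5 and 350.5 CPM against 181, 221, 214 and 103 CPM (0.45 ± 0.112, adjusted p = 0.0495), under the fold limit and lower in unsorted library 2, without which 3 of the 6 were called. In L5-Bcl6 Homer1 was the 1 with an unadjusted p below 0.05 (0.22 ± 0.101, adjusted p = 0.732). L5-Htr2c had 2 to 4 barcode-high neurons per library and was not tested.

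**Figure D3:**
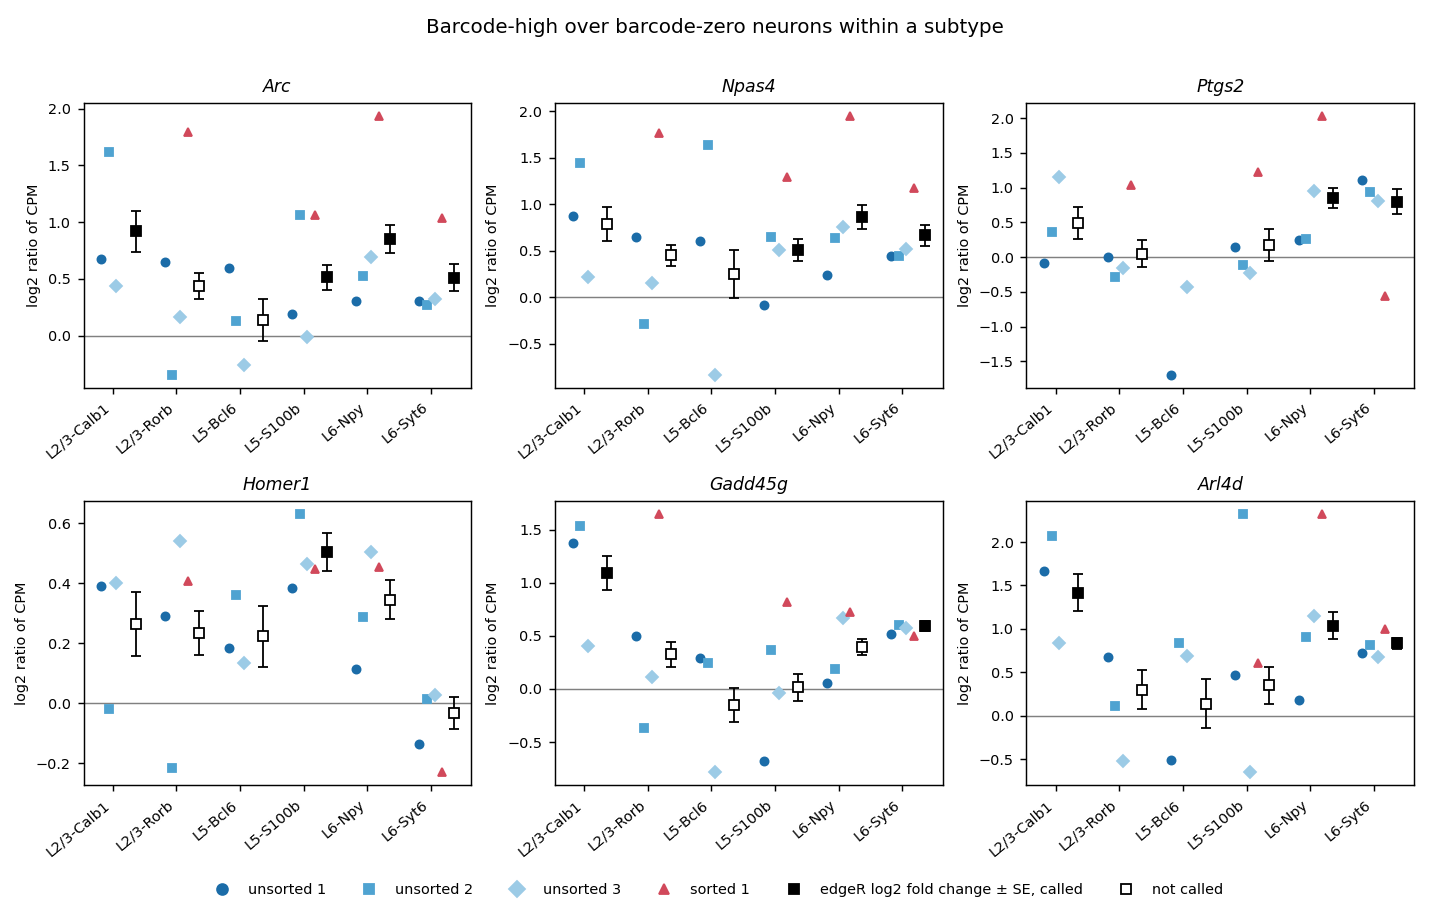
Log2 ratio of barcode-high to barcode-zero neurons for each gene, with points for single libraries and squares for the fitted log2 fold change with its standard error, in 6 subtypes (no point is drawn where a group had 0 UMIs). In L6-Syt6 the Arl4d and Gadd45g points sit close together, all at 0.50 or more, while Homer1 sits near 0, and in L5-S100b Homer1 is the tightest of the 6.

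The barcode difference itself was compared among the 4 subtypes with all 4 libraries, L2/3-Rorb, L5-S100b, L6-Npy and L6-Syt6, and 7.36% of genes differed among them at an adjusted p below 0.05. Homer1 differed (adjusted p = 0.00214, edgeR). Its barcode difference was 0.54 ± 0.102 higher on the log2 scale in L5-S100b than in L6-Syt6 (adjusted p = 0.000566) and 0.38 ± 0.104 higher in L6-Npy than in L6-Syt6 (adjusted p = 0.0311), where 6.70% and 3.36% of genes differed. No difference among subtypes was shown for Arc (adjusted p = 0.725), Npas4 (0.745), Arl4d (0.481) or Ptgs2 (0.470). Gadd45g gave an adjusted p of 0.214, and without the sorted library 5.34e-07. Ptgs2 likewise reached 0.000373 without that library, and with no filter on low counts Arc (0.0168), Ptgs2 (0.0221), Gadd45g (0.000447) and Arl4d (0.0302) also passed.

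Neurons were then divided by the viral count into 0, 1 to 4, 5 to 19 and 20 or more UMIs. In L6-Syt6, Gadd45g stood at 300.0 ± 6.68, 245 ± 16.3, 376 ± 26.6 and 584 ± 65.0 CPM over these classes (mean ± SD, n = 4), and Arl4d at 115 ± 9.31, 98.9 ± 6.60, 162 ± 15.1 and 291 ± 34.8 CPM. Neurons with 1 to 4 UMIs were thus below those with 0 for both genes, in 4 of 4 libraries, and the level did not rise steadily. Arc reached 479.9 ± 49.0 CPM and Npas4 391 ± 33.9 CPM at 20 or more, above the neurons with 0 in 4 of 4 libraries. Homer1 stayed at 288 ± 18.3, 297 ± 13.4, 269 ± 10.2 and 279 ± 9.62 CPM.

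In L6-Npy all 6 genes were higher at 20 or more UMIs than at 0 in 4 of 4 libraries, with only 112 neurons in the upper class. Npas4 went from 107 ± 40.3 to 357 ± 108 CPM, Ptgs2 from 93.4 ± 33.5 to 251 ± 123 CPM, and Homer1 from 197 ± 34.5 to 306 ± 37.5 CPM. In L5-S100b Homer1 stood at 223 ± 23.2, 246 ± 30.9, 286 ± 16.1 and 325 ± 12.1 CPM, the steadiest order of the 6 genes there, whereas Gadd45g stood at 122 ± 48.7, 80.6 ± 15.3, 94.3 ± 5.97 and 150.0 ± 31.0 CPM. These classes were described without a test.

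**Figure D4:**
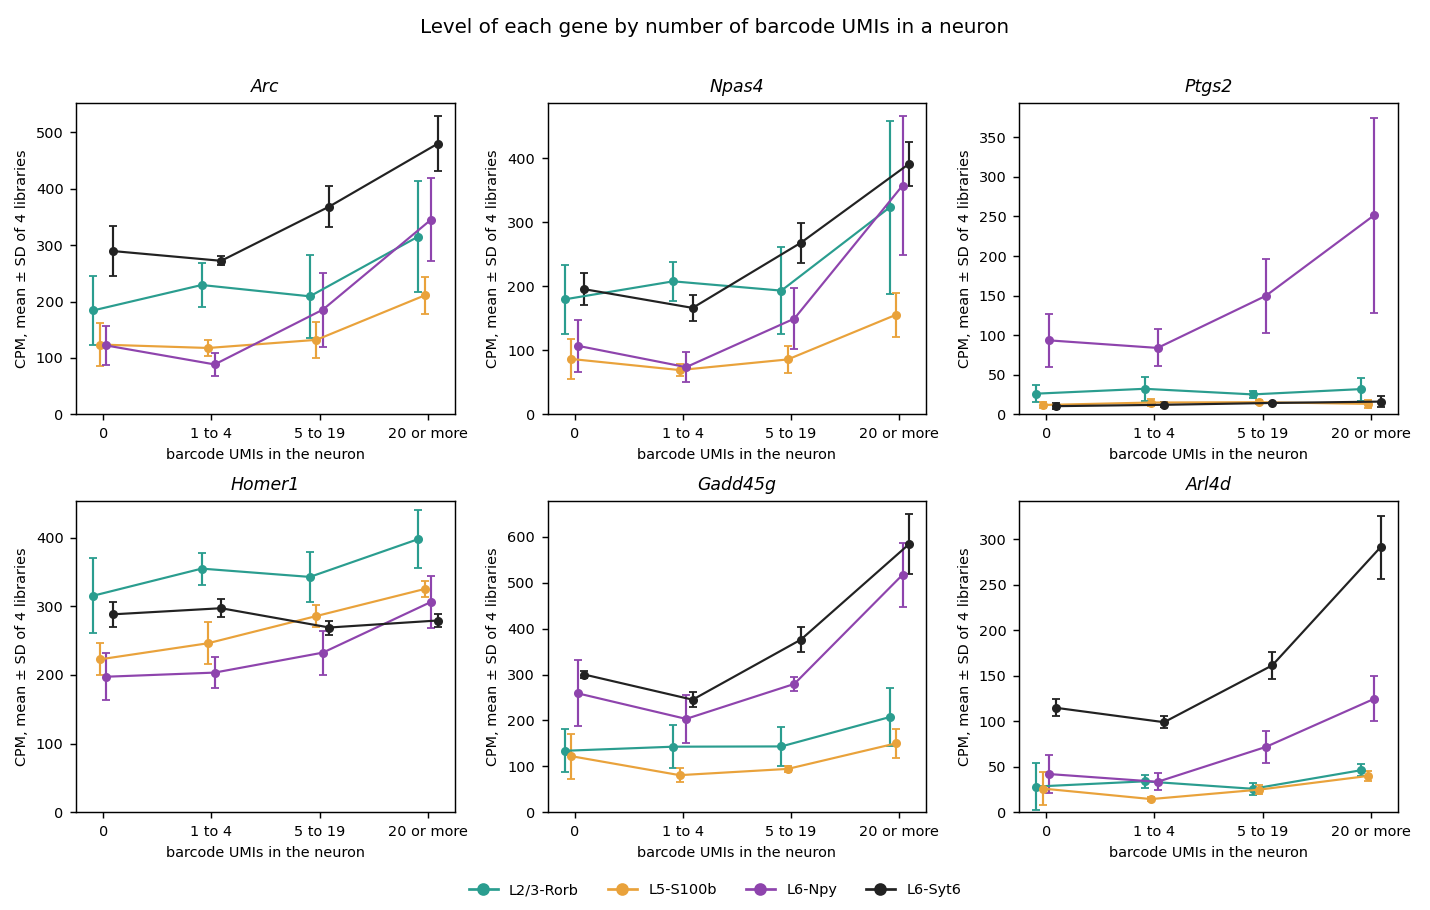
Level of each gene (CPM, mean and SD over libraries) against the class of viral UMIs per neuron, for the subtypes with enough neurons. In L6-Syt6 Gadd45g dips from 300.0 to 245 CPM at 1 to 4 UMIs and then climbs to 584 CPM, while Homer1 stays between 269 and 297 CPM.

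Other genes of the activity response moved in the same comparison. Of 22 activity-induced transcription factors, 11 of 20 tested rose in L6-Npy, led by Nr4a2 (log2 fold change 1.55), Egr2 (1.23) and Egr4 (1.18), and 5 of 22 in L6-Syt6, led by Egr4 (0.90), Fosl2 (0.61) and Egr2 (0.56). In L2/3-Calb1 3 of 16 rose (Egr4 1.59, Ier2 1.33 and Egr2 1.13), in L5-S100b 2 of 20 (Egr3 0.61 and Nr4a1 0.56), in L2/3-Rorb 1 of 19 (Egr4 0.50) and in L5-Bcl6 0 of 17 (1 at an unadjusted p below 0.05, DESeq2 0). Of 26 other induced effector genes, 11 of 22 rose in L6-Npy, among them the kinase-like Trib1 (1.30), the matricellular Cyr61 (1.28) and the ERK phosphatase gene Dusp6 (1.20). In L6-Syt6 7 of 26 rose, in L2/3-Calb1 3 of 19, in L5-S100b 2 of 23 (Nptx2 1.20 and Trib1 0.75), in L2/3-Rorb 1 of 20 (Vgf 0.52) and in L5-Bcl6 0 of 17 (3 at an unadjusted p below 0.05, DESeq2 0). None of these listed genes was called lower, but not all were higher in barcode-high neurons. Of the effectors, 20 of 22 were higher in L6-Npy, 19 of 26 in L6-Syt6 and 16 of 23 in L5-S100b. Of the transcription factors, 21 of 22 were higher in L6-Syt6 and 14 of 19 in L2/3-Rorb. Over all genes tested 0.617% were called higher in L6-Npy, 0.806% in L6-Syt6, 0.156% in L2/3-Calb1, 1.10% in L5-S100b and 0.0996% in L2/3-Rorb. DESeq2 called 4 of the transcription factors and 3 of the effectors in L6-Npy, where edgeR without the library block called 0 of all genes (406 at an unadjusted p below 0.05). DESeq2 called 5 and 7 in L6-Syt6, 1 and 0 in L2/3-Calb1, 2 and 1 in L5-S100b, and 0 and 0 in L2/3-Rorb. In L2/3-Rorb and L5-Bcl6 it called 0 of all genes. The median log2 fold change of the tested transcription factors was 0.61 in L6-Npy and 0.41 in L6-Syt6, against -0.0026 and -0.0051 over all genes tested there.

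Calls were few among genes that work with the 6 members, as they were among all genes (0.0686% to 2.70% called by subtype). Among 8 genes of Arc's endocytic and other binding partners, 0 of 48 tests in 6 subtypes were called (edgeR, 6 at an unadjusted p below 0.05, DESeq2 0), and among the partners of Npas4 0 of 18 (2 at an unadjusted p below 0.05, DESeq2 0). Among the Homer family and its postsynaptic partners only Homer2 rose, in L5-S100b (0.80). Of the prostaglandin genes, Hpgd, which degrades prostaglandins, rose in L6-Syt6 (0.66) and Mgll, a monoacylglycerol lipase gene, rose in L5-S100b (0.71). Gadd45b, of the same family as Gadd45g, rose in L2/3-Calb1 (1.02), L6-Syt6 (0.78) and L6-Npy (0.74), while Gadd45a rose in L5-S100b (0.73) and Cdkn1a in L6-Npy (0.55). Of these calls DESeq2 kept that of Gadd45b in L6-Syt6 and lost the other 4, and it lost that of Hpgd (adjusted p = 0.0544). Arl4c, a relative of Arl4d, fell in L6-Syt6 by 0.56 on the log2 scale, where 0.867% of genes were called lower.

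Heat shock genes, which respond to warm dissociation among other stresses, gave 3 calls in 55 tests, Hspa8 (0.66) and Dnajb1 (0.62) in L6-Syt6 and Dnajb1 (0.61) in L6-Npy, and 20 of the 55 had an unadjusted p below 0.05. In L6-Syt6 9 of 10 were higher in barcode-high neurons and 9 of 10 had an unadjusted p below 0.05, against 3307 of 13030 genes, and their median log2 fold change was 0.25 against -0.0051 over all genes. In L6-Npy 8 of 9 were higher, with a median of 0.11. Their part in the results was not tested. Of the excitatory neuron markers, Tbr1 (0.52) and Snap25 (0.51) rose in L5-S100b. There 7 of 7 were higher and 7 had an unadjusted p below 0.05 (edgeR), against 1970 of 11477 genes. Their median log2 fold change was 0.28 against -0.0036 over all genes, and their part was not tested. In L6-Syt6 4 of 7 were higher. For markers of other cell types 0 of 26 tests were called (edgeR, 2 at an unadjusted p below 0.05, DESeq2 0).

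The same 6 genes were read in the remaining cells of the unsorted libraries, which were clustered without the 6 genes or other activity genes and named by markers (1411 inhibitory neuron-like, 2743 microglia-like, 1735 oligodendrocyte-like, 1753 oligodendrocyte precursor-like and 1994 endothelial-like cells among them). Excitatory neurons stood at 249.5 ± 9.11 CPM of Arc, 180.6 ± 7.07 CPM of Npas4, 24.1 ± 2.45 CPM of Ptgs2, 277 ± 5.97 CPM of Homer1, 263 ± 3.90 CPM of Gadd45g and 95.1 ± 5.52 CPM of Arl4d (n = 3). Inhibitory neuron-like cells had 22.9 ± 6.40 CPM of Arc and 105 ± 3.57 CPM of Homer1. Arl4d was higher in endothelial-like cells than in the excitatory neurons, at 134 ± 7.34 CPM, and Ptgs2 in microglia-like cells stood at 25.2 ± 9.26 CPM, within the spread of the neurons. Astrocyte-like cells varied widely between libraries, at 39.5 to 103 CPM of Arc over 512 cells. Gadd45g stood at 238, 154 and 121 CPM in astrocyte-like cells and was also present in endothelial-like (156 ± 11.2 CPM) and microglia-like (84.0 ± 3.16 CPM) cells.

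Free RNA adds UMIs to cells that do not make them, and thinning does not remove it. Its amount was not estimated, so the last share given for each gene, from a class where it was low, is read as background. At 2000 UMIs per cell Arc was detected in 32.1% ± 0.935 of excitatory neurons, 8.21% ± 0.531 of oligodendrocyte-like cells and 1.32% ± 0.038 of endothelial-like cells, where median depth before thinning was 22250, 4744 and 3203 UMIs. Arl4d was detected in 12.6% ± 0.864 of excitatory neurons, 25.1% ± 1.55 of endothelial-like cells and 1.15% ± 0.273 of oligodendrocyte precursor-like cells. Ptgs2 was detected in 3.50% ± 0.184 of excitatory neurons, 3.41% ± 0.288 of microglia-like cells and 0.142% ± 0.123 of inhibitory neuron-like cells. Before thinning the shares were 77.6% (neurons), 17.9% and 2.86% for Arc, 49.7%, 38.7% and 2.46% for Arl4d, and 17.7%, 5.40% and 1.10% for Ptgs2. The shares left out 15 neurons, 327 endothelial-like, 95 microglia-like, 30 oligodendrocyte-like, 88 precursor-like and 63 inhibitory-like cells with fewer UMIs.

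**Figure D5:**
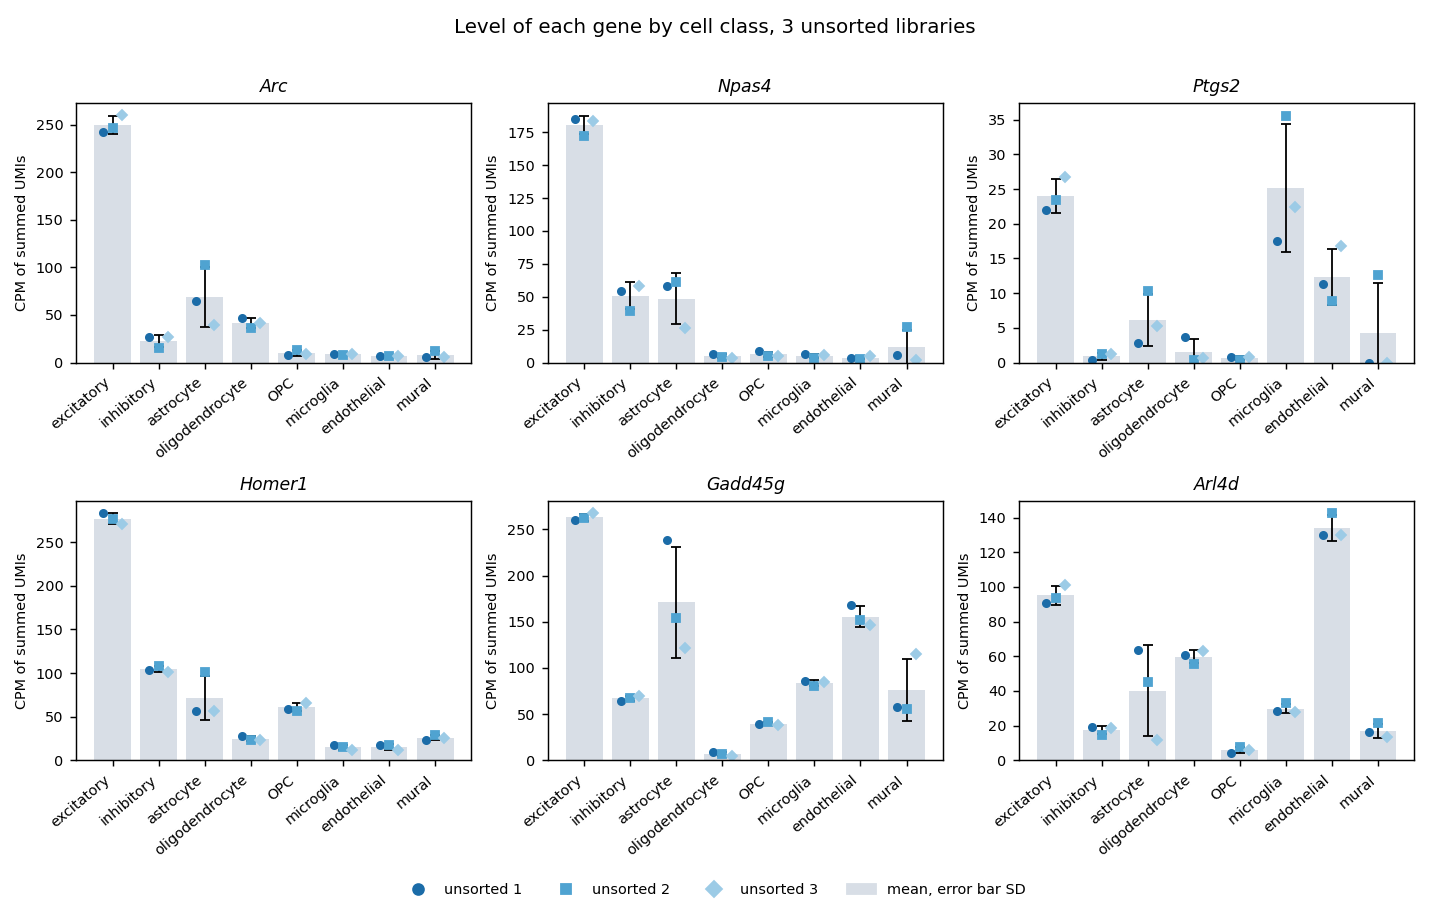
Level of each gene (CPM of summed UMIs, mean and SD over the 3 unsorted libraries) in the excitatory neurons and in the classes of remaining cells. Arl4d and Gadd45g reach 134 and 156 CPM in endothelial-like cells, and Arc and Npas4 are highest in the excitatory neurons.

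Over all excitatory neurons, the sorted library stood above the 3 unsorted libraries for Arc (294 against 242 to 259.6 CPM), Npas4 (222 against 172.5 to 185 CPM), Ptgs2 (34.3 against 22.0 to 26.8 CPM), Homer1 (286 against 271 to 283 CPM) and Arl4d (108 against 90.5 to 101 CPM). Gadd45g was just below them (259.7 against 259.8 to 267.5 CPM). With 1 sorted library there was no test, and 56.7% of 10361 genes were above and 33.2% below the unsorted range. Among neurons of 15000 to 40000 UMIs the log2 difference went from 0.24 to 0.033 for Arc and from 0.30 to 0.0080 for Npas4, both within the unsorted range. In those neurons Arl4d turned from 0.18 to -0.12, below the unsorted range, and Ptgs2 went from 0.51 to 0.78.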

How the data were processed

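Single-cell RNA-seq was read from 4 matrices of raw UMI counts, which the authors made with Cell Ranger 3.0.2 on a mm10 reference extended with viral sequences (per the file headers), with 10x Genomics 3' chemistry and deposited. Neurons and subtypes come from the authors' deposited metadata of excitatory neurons, and the percent of mitochondrial counts was computed from the matrices. Unsorted libraries 1 to 3 summed to 87809114, 83039497 and 83851094 UMIs, and the library from sorted cells to 54728191. No doublet caller was run, and the authors' upper limits on genes and counts per cell stand in for doublet removal, so doublets may remain.

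UMIs were summed per library, subtype and barcode arm, with at least 10 neurons per arm and library in at least 3 libraries. Sums were tested with edgeR 4.0.16 (TMM, filterByExpr, quasi-likelihood, Benjamini-Hochberg over all genes tested), with the library as a block because both arms come from the same library. DESeq2 1.42.0 was an alternative, with other size factors, filters, barcode limits, depths and left-out libraries. The test was tested on simulated data. The remaining cells (500 to 8000 genes, 1000 to 60000 UMIs, under 20% mitochondrial counts) were clustered with scanpy 1.11.5 (2000 variable genes, 30 components, Leiden resolution 1.0) and named only where at least 3 markers were detected, and the names are rebuilt, not the authors'. Positions come from GENCODE vM21, in which all 6 gene identifiers matched.

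The 6 genes and the lists (transcription factors and other effectors of the activity response, partners of Arc, Npas4, Homer1 and Ptgs2, the Gadd45 and Arl4 families, heat shock, excitatory neurons and other cell types) were chosen with earlier results of these data known. From each list, up to 3 called genes with the largest change were named per subtype, and up to 3 genes most alike per member. Each unsorted library is a separate mouse. Intervals and errors cover the spread between libraries only.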

Additional observations from a re-analysis of the deposited data

Results flagged for a closer look

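In L6-Syt6 neurons the sorted library stood apart from the 3 unsorted libraries in the barcode comparison of 2 genes. Its log2 ratio of barcode-high to barcode-zero neurons was 1.04 for Arc, against 0.27 to 0.33 in the unsorted libraries, and 1.17 for Npas4, against 0.44 to 0.52. The gap to the nearest library, divided by the whole range, passed Dixon's 95% critical value for 4 samples in these 2 of the 23 groups examined, and chance alone passes about 1 group in 20. For Arc, the barcode-zero neurons of the sorted library were the lowest of the 4 libraries (225 CPM) and its barcode-high neurons the highest (462 CPM). Its 94 barcode-zero neurons had been selected by EGFP signal while holding 0 UMIs of the viral feature, and what share of them was infected was not tested.

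The barcode difference of Homer1 was not the same in the 4 subtypes with all 4 libraries (adjusted p = 0.00214, edgeR interaction test across all genes). It was 0.50 in L5-S100b, 0.35 in L6-Npy, 0.23 in L2/3-Rorb and -0.03 in L6-Syt6 on the log2 scale.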

How the results depend on the processing

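Of 339 refitted log2 fold changes of the 6 genes, 256 kept their direction and their side of the threshold, 57 lost the call, 11 gained it and 15 turned direction. For values that turned, the cause was not tested. The number of the 6 called in L6-Syt6 (5) was 3 among neurons of 15000 to 40000 UMIs, 1 with 1 or more barcode UMIs, and 2 to 4 when a library was left out. In L6-Npy (4) it was 0 with DESeq2, 2 with 1 or more UMIs, and 3 to 5 when a library was left out. In L5-S100b (3) it was 1 with DESeq2, 0 with 1 or more UMIs, 0 in the depth range, and 0 to 3 when a library was left out (0 without unsorted library 2, 1 without the sorted library). In L2/3-Calb1 (3) it was 0 with DESeq2, 1 with 1 or more UMIs and 0 to 4 when a library was left out, and in L2/3-Rorb (0) it was 0 to 3. Without the library block 2 were called in L6-Syt6, 0 in L6-Npy and 0 in L5-S100b, and the other subtypes kept their counts. Over all genes, calls in L6-Syt6 went from 218 to 28 to 78 without an unsorted library, 309 without the sorted library, 27 with 1 or more UMIs and 75 without the block, in L6-Npy from 83 to 11 with DESeq2 and 0 without the block, and in L5-S100b from 310 to 142 with DESeq2 and 56 without the block.

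None of the values that turned direction had been called. In L2/3-Rorb, leaving out a library gave -0.13 to 0.16 for Ptgs2 and -0.0014 to 0.83 for Arl4d. In L5-Bcl6, it gave -0.11 to 0.41 for Arc, -0.056 to 0.90 for Npas4, -0.38 to 0.27 for Gadd45g and -0.10 to 0.74 for Arl4d, with 1 or more UMIs -0.023 for Arc and -0.040 for Arl4d, and in the depth range -0.026 for Arc. In L5-S100b, it gave -0.044 to 0.33 for Ptgs2 and -0.17 to 0.35 for Gadd45g, and Gadd45g was -0.079 with 1 or more UMIs and -0.0011 in the depth range.

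The adjusted p of the difference among subtypes fell below 0.05 with no filter on low counts for Arc (0.0168), Ptgs2 (0.0221), Gadd45g (0.000447) and Arl4d (0.0302), and ranged over left-out libraries from 0.000373 to 0.835 for Ptgs2 and 5.34e-07 to 0.756 for Gadd45g, each lowest without the sorted library.

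The log2 difference of sorted and unsorted neurons was, in the depth range, 0.033 for Arc, 0.0080 for Npas4, 0.78 for Ptgs2, 0.093 for Homer1, -0.25 for Gadd45g and -0.12 for Arl4d. Taking barcode-high neurons alone, it was 0.49 for Arc, 0.47 for Npas4, 0.21 for Ptgs2, -0.016 for Homer1, 0.11 for Gadd45g and 0.38 for Arl4d. With equal weight for 6 subtypes it was 0.20 for Npas4, 0.12 for Ptgs2, 0.12 for Homer1, -0.095 for Gadd45g and -0.025 for Arl4d. Levels by subtype moved by less than the spread between libraries in 203 of 210 refits and levels of other classes in 58 of 60. Shares of neurons with a UMI moved by more than that spread in 40 of 42 cases when thinned, and the sorted differences in 17 of 36. Depth limits Ptgs2 in L5-Bcl6, where a library held 2 to 29 UMIs.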
